A study of Homo sapiens with 60 samples.

Results

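SW1783 is an established human astrocytoma cell line, and the values here describe what it transcribed under vehicle alone. The members are the 3 libraries, of 60 in the series, whose treatment label is 0.1% DMSO (Vehicle replicates 1, 2 and 3). The labels put these cells in L-15 medium with 10% heat-inactivated serum at 37 °C and 0% CO2, and give a sampling time of 24 h. The series description gives the vehicle as 2% DMSO, and the files do not settle which content was used. The other libraries received 10 µM wortmannin or herbal extracts and enter no value below. No label says whether the 3 libraries came from separate cultures, so each SD over n = 3 covers the spread between these libraries, which may be technical. Every library comes from the same line, whose donor or tumour tissue is not represented otherwise, and no untransformed astrocyte was measured alongside it.

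As background, astrocytes are the supporting glia of the brain and are defined by GFAP filaments, glutamate uptake carriers, aquaporin channels and gap junctions. Astrocytomas are tumours named for their likeness to these cells. Glioma transcription is often described along proneural, classical and mesenchymal programmes, the last of which shares matrix, adhesion and inflammatory genes with connective tissue cells.

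Total expected counts were 27850249, 28461841 and 26447834 in replicates 1 to 3. CPM is the usual scaling of a gene's count to the library total, in which 1 CPM stood for 26.4 to 28.5 counts here, and was used to decide presence. TPM, the transcript scale, also divides by the summed exon length and was used to set genes against each other. A gene was called expressed at 1 CPM or more in each library, lacking under 0.1 CPM in each library, and low otherwise. A gene with 0 counts in all 3 libraries together may still reach 0.0362 CPM, and this limit covers counting error only. Across 13481 expressed genes, log2 CPM of any pair of libraries correlated at a Pearson r of 0.996 to 0.997, across genes that are not independent replicates. Counts of each pair differed by more than sampling noise, with a chi-square of 3.49 to 7.97 per degree of freedom, so no library repeated another. Mitochondrially encoded genes took 10.3% to 10.6% of counts. Their share of TPM was larger: the 13 encoded subunits summed to 318943 ± 5653 TPM (SD, n = 3). Every nuclear TPM value depends on that share.

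Of 60675 gene identifiers, 13481 were expressed, which is 22.2%. Among 19693 protein-coding genes, 12051 were expressed (61.2%), 2776 were low and 4866 were lacking (24.7%). The genes described below belong to 60 lists with 1171 different members. Of the 1171, 742 were expressed, 215 were low and 214 were lacking, a share of 63.4% expressed that is near the 61.2% of all protein-coding genes. By theme, 128 of 265 lineage genes (48.3%), 201 of 371 receptor and ligand genes (54.2%) and 144 of 219 matrix genes (65.8%) were expressed. So were 193 of 245 metabolic genes (78.8%) and 110 of 116 cell cycle genes (94.8%). Among the 100 nuclear protein-coding genes of highest TPM, 14 were matrix members, 8 metabolic members and 8 lineage members, and none came from the receptor or cell cycle lists. These were 24 different genes, some of them counted under several themes. The median expressed nuclear protein-coding gene stood at 19.2 TPM (12038 genes).

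**Figure D1:**
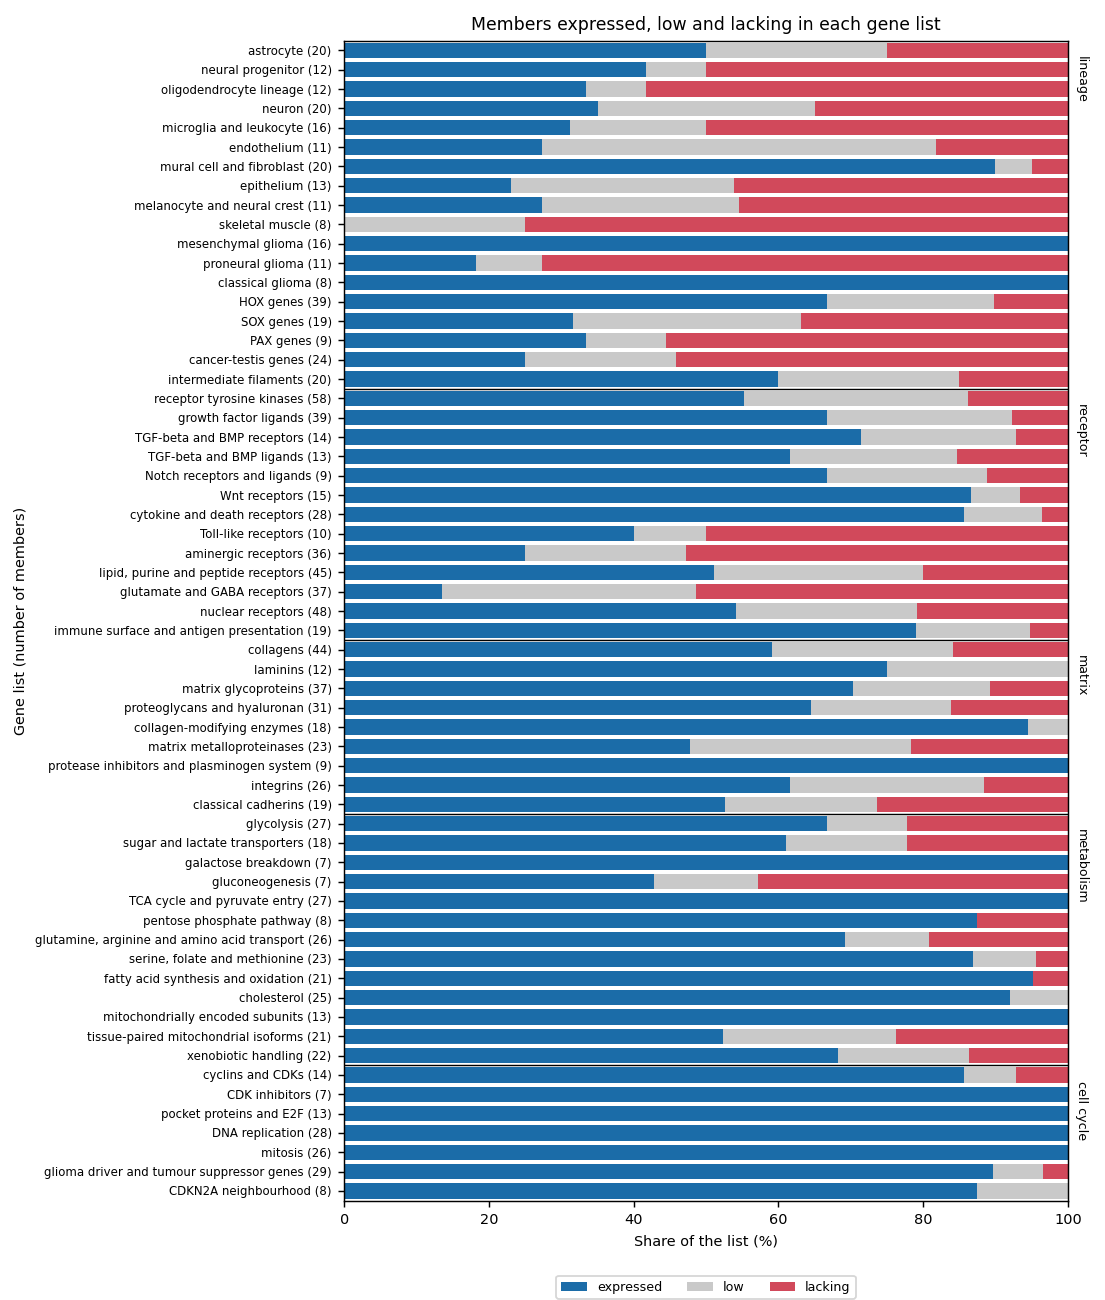
Share of each gene list (horizontal axis, percent of members) that was expressed, low or lacking in the 3 vehicle libraries, with list sizes in brackets. The mesenchymal glioma, TCA cycle, DNA replication and mitosis lists are expressed throughout, whereas the glutamate and GABA receptor list has 5 of 37 members expressed and the skeletal muscle list none of 8. The share of all protein-coding genes expressed is 61.2%.

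Expressed and lacking genes differed in the sequence just upstream of their starts. RefSeq promoter windows (build GRCh38.p14) within 1000 bases of an annotated start were found for 15072 nuclear protein-coding genes, and the 250 upstream bases were read. Where a gene had several windows, the one of lowest coordinate entered these shares. A CpG ratio, the observed over the expected number of CG dinucleotides, of 0.6 or more was held by 80.8% of windows of 9810 expressed genes, 44.4% of 1859 low genes and 23.8% of 3403 lacking genes, against 63.5% of all windows. The letters TATAAA on either strand occurred in 5.24%, 11.6% and 19.8% of windows in the same order, against 9.32% of all. GGGCGG, the GC box, occurred in 67.4%, 48.1% and 28.3%, against 56.2% of all, and CCGGAA, the core of ETS sites, in 26.0%, 8.5% and 6.94%, against 19.5% of all. CCAAT was spread evenly, at 35.1%, 32.3% and 34.4%, against 34.6% of all. All of these letters were searched on both strands. Median GC content was 65.2%, 60.8% and 52.8% in the same order. GGGCGG and CCGGAA each hold a CG and TATAAA holds only A and T. Their shares are therefore not separate from the CpG and GC content of the windows. These shares are descriptions of letters in a window, and DNA methylation was not measured.

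6 windows are shown because they span this range: a gene among the most abundant (TGFBI), the 2 starts of CDKN2A, and 3 genes that were low (MGMT) or lacking (SOX2, HEPACAM). Each run holds the 250 bases upstream of the RefSeq start, 5′ to 3′ on the gene's strand, with CG dinucleotides in capitals.
TGFBI (chr5:136028738-136028987, plus strand): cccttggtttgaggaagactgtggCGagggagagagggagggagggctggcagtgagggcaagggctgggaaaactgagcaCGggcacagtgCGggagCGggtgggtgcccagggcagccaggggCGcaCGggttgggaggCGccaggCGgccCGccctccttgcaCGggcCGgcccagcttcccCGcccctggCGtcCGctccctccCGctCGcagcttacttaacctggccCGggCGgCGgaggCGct
CDKN2A, downstream start (chr9:21974858-21975107, minus strand): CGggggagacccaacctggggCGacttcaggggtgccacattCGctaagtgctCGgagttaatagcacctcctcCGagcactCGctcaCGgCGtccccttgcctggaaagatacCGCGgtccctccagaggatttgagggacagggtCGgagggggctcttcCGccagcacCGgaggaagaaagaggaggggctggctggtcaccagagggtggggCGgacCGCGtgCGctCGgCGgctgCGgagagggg
CDKN2A, upstream start (chr9:21995325-21995574, minus strand): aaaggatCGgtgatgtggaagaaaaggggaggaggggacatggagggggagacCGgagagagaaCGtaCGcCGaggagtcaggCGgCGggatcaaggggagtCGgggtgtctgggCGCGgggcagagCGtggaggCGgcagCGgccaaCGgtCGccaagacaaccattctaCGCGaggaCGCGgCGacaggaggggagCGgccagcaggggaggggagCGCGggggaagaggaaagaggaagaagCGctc
MGMT (chr10:129466991-129467240, plus strand): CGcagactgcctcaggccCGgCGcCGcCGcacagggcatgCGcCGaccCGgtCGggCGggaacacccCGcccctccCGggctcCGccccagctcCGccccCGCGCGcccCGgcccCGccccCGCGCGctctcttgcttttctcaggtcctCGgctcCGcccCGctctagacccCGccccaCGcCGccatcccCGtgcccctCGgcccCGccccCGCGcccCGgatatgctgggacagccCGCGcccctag
SOX2 (chr3:181711675-181711924, plus strand): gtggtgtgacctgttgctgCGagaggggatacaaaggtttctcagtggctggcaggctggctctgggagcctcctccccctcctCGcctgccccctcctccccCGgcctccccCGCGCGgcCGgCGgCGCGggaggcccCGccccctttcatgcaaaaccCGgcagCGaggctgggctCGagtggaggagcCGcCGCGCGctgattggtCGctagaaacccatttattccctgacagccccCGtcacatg
HEPACAM (chr11:124936048-124936297, minus strand): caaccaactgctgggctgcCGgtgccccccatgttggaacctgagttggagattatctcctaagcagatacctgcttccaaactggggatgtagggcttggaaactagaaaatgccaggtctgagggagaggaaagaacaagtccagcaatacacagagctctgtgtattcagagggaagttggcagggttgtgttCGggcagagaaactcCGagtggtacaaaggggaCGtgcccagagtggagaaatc
The MGMT window held 36 CG dinucleotides (ratio 0.995) above a gene at 0.581 CPM, and the SOX2 window held 20 (ratio 0.682) above a gene with 0 counts. The TGFBI window also held 20 (ratio 0.618), above a gene at 4762 CPM. The CDKN2A windows held 20 and 24 (ratios 0.736 and 1.08), and the HEPACAM window held 4 (ratio 0.243) above a gene with 1 count in all 3 libraries. Among list members with a window, 71.1% of 568 expressed, 42.9% of 140 low and 34.7% of 147 lacking members had the CpG-dense kind. CpG density in a window thus did not separate the classes gene by gene.

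The astrocyte markers were present in part. Of 20, 10 were expressed, 5 were low and 5 were lacking, a share of 50% against 61.2% of protein-coding genes. GJA1, the connexin of astrocytic gap junctions, was the highest at 196, 201 and 199 CPM in replicates 1 to 3, or 189 ± 3.8 TPM (SD, n = 3). SOX9, a transcription factor of glial fate, stood at 74.6, 82.3 and 81.3 CPM (65.5 ± 3.9 TPM). CLU, the secreted chaperone clusterin, stood at 110, 108 and 99.7 CPM (52.0 ± 2.2 TPM). GJA1 was above the other two in every library, whereas SOX9 and CLU changed places taking the longest transcript as the length, at 51.6 and 87.9 TPM.

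GLUL, glutamine synthetase, stood at 21.4 ± 0.43 TPM and SLC1A3, the glutamate carrier of Bergmann glia and astrocytes, at 16 ± 0.80 TPM. ALDOC, the brain form of aldolase, reached 8.02 ± 0.41 TPM. NFIB and NFIA, gliogenic transcription factors, reached 3.00 ± 0.46 and 2.19 TPM, FGFR3 2.53 ± 0.18 TPM and the lipid carrier APOE 2.52 ± 0.60 TPM, and the libraries of NFIB, FGFR3 and APOE overlapped.

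The defining filament was all but absent. GFAP (chromosome 17, 44903161 to 44916937, GRCh38) had 6, 3 and 3 counts, which is 0.215, 0.105 and 0.113 CPM. S100B, a calcium-binding protein of astrocytes, had 3, 1 and 0 counts, and ALDH1L1, a folate enzyme used as an astrocyte marker, had 0, 4 and 0. SLC1A2, the main forebrain glutamate carrier, stood at 0.323, 0.316 and 0.529 CPM, and NDRG2 at 0, 0.141 and 0.151 CPM. AQP4, the water channel of astrocytic endfeet, and GJB6, a second astrocytic connexin, had 0 counts. FABP7, a lipid-binding protein of radial glia, and the adhesion and membrane proteins HEPACAM and MLC1 had 1 count each in all 3 libraries together. The markers of the labelled cell type were thus mixed. GFAP and S100B were low and AQP4 was lacking, whereas the gap junction gene GJA1 and the glutamate carrier SLC1A3 were expressed.

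**Figure D2:**
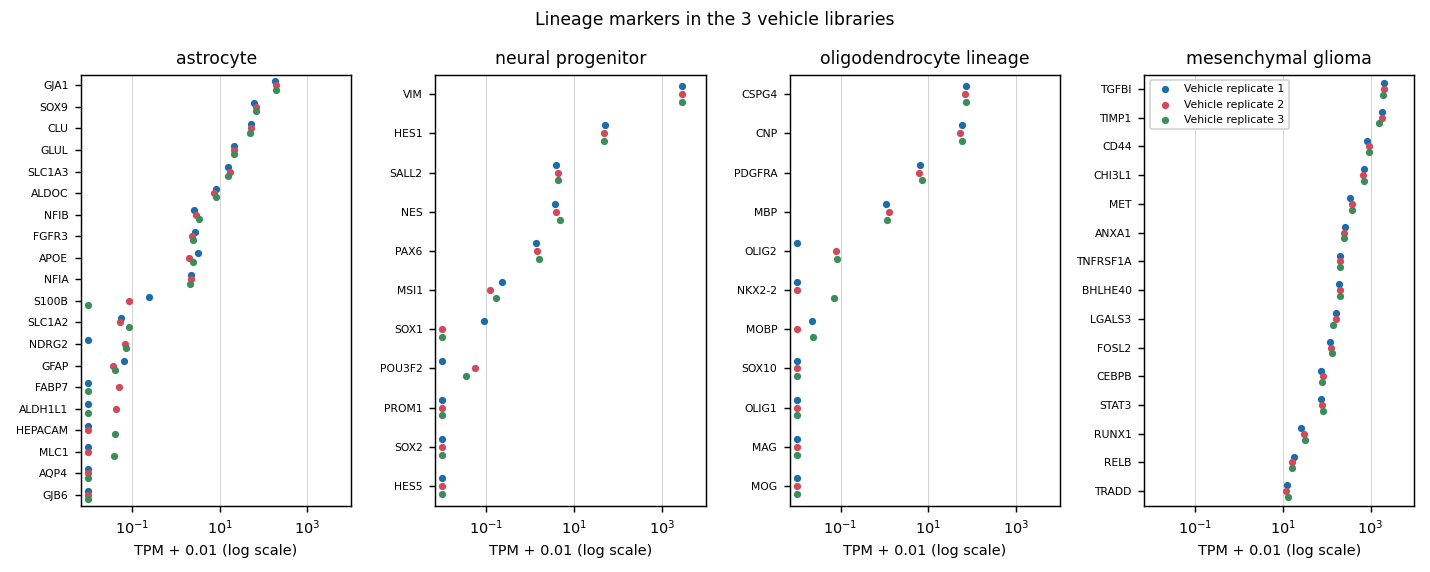
TPM plus 0.01 on a log axis for members of 4 lists (3 members are not plotted), with a point for each vehicle library; points at 0.01 are genes with 0 counts. GFAP, S100B and AQP4 lie at the low end of the astrocyte panel, whereas every plotted mesenchymal glioma marker lies above 10 TPM in each library.

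Of 12 neural progenitor genes, 5 were expressed (41.7%), 1 was low and 6 were lacking, and of 12 oligodendrocyte lineage genes, 4 were expressed (33.3%), 1 was low and 7 were lacking, against 61.2% of protein-coding genes expressed. VIM, vimentin, the filament of mesenchymal cells and radial glia, stood at 4750, 4643 and 4667 CPM (2950 ± 28 TPM) and outranked NES, nestin, 719-fold by TPM (± 84, SD, n = 3), or 1391-fold (± 162) taking the longest transcript as the length. NES itself was at 6.46, 6.78 and 8.02 CPM (4.14 ± 0.52 TPM). HES1, a Notch target repressor, was at 49.4 ± 1.4 TPM, SALL2 at 4.17 ± 0.26 TPM and PAX6 at 1.45 ± 0.12 TPM, and 25.2% of the PAX6 exon bases are shared with ELP4 on the other strand (15.1 CPM).

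MSI1, an RNA-binding protein of neural stem cells, was at 0.157 CPM. SOX2, the factor that marks neural stem cells and most glioma stem cells, had 0 counts in each library, as did PROM1 (the CD133 antigen) and HES5. SOX1 had 2 counts and POU3F2 had 3 in all 3 libraries together. CSPG4, the NG2 proteoglycan of oligodendrocyte precursors and pericytes, stood at 183, 179 and 178 CPM (70.5 ± 0.62 TPM), and CNP, a myelin enzyme, at 139, 121 and 130 CPM (56.7 ± 3.7 TPM).

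PDGFRA, the PDGF receptor of oligodendrocyte precursors, stood at 6.55 ± 0.41 TPM, and MBP, the myelin basic protein gene, at 1.15 ± 0.11 TPM. The lineage factors were lacking: OLIG1 and SOX10 had 0 counts, OLIG2 had 0, 2 and 2, and NKX2-2 had 1. MOG and MAG, proteins of mature myelin, had 0 counts, and MOBP had 2.

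All 16 mesenchymal genes were expressed, with a median of 201 TPM, and all 8 classical genes, with a median of 6.79 TPM, whereas 2 of 11 proneural genes were expressed and 8 were lacking. Beside these counts, 61.2% of protein-coding genes were expressed, and the members were chosen with earlier results known. TGFBI, a secreted matrix protein, stood at 4959, 4818 and 4509 CPM (1979 ± 76 TPM). TIMP1, an inhibitor of metalloproteinases, stood at 863, 860 and 741 CPM (1730 ± 131 TPM), with replicate 3 below the other two.

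CD44, the hyaluronan receptor used as the surface marker of the mesenchymal state, stood at 2637, 2808 and 2827 CPM (895 ± 42 TPM), and CHI3L1, a secreted chitinase-like protein of reactive glia, at 764, 693 and 740 CPM (698 ± 34 TPM). MET, the hepatocyte growth factor receptor, ANXA1, an annexin, and TNFRSF1A, a TNF receptor, reached 364 ± 24, 254 ± 9.2 and 205 ± 1.1 TPM. The lowest mesenchymal member was TRADD, a TNF receptor adaptor, named after its value was seen, at 12.5 TPM. In the classical list EGFR reached 86.3 ± 8.0 TPM, JAG1 36.0 ± 1.8, SMO 15.6 ± 0.91, NOTCH3 8.52 ± 0.49 and GLI2 5.05 ± 0.26 TPM. Of the proneural list, PDGFRA and TCF4 were expressed at 6.55 ± 0.41 and 6.45 ± 0.42 TPM with overlapping libraries, and OLIG2, SOX2, DLL3, NKX2-2 and DCX were lacking.

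Connective tissue genes were nearly as complete. Of 20 mural cell and fibroblast markers, 18 were expressed (90%, against 61.2% of all protein-coding genes), 1 was low and PDPN had 0 counts. These members too were chosen with earlier results known. COL1A1 and COL1A2, the chains of type I collagen, FN1, fibronectin, and THY1, a surface glycoprotein of fibroblasts and neurons, reached 1220 ± 17, 514 ± 8.9, 845 ± 62 and 269 ± 8.9 TPM. The smooth muscle genes TAGLN and ACTA2 reached 220 ± 13 and 109 ± 4.0 TPM, POSTN, periostin, 56.4 ± 4.1 TPM and TWIST1, a mesenchymal transcription factor, 44.2 ± 0.63 TPM. Markers of skeletal muscle were not expressed: of 8, 2 were low and 6 were lacking, among them MYOG, MYF5 and CKM at 0 counts.

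Markers of other cell types were present in smaller numbers. Of 16 microglial and leukocyte genes, 5 were expressed (31.25%) and 8 were lacking. Among all protein-coding genes, 61.2% were expressed and 24.7% were lacking. The leukocyte list summed to 288, 299 and 296 TPM. CD68, a lysosomal protein common to many cell types, made up 261 ± 7.8 TPM of that, and 81.7% of its exon bases are shared with another entry on the same strand (18.2 CPM). PTPRC, the leukocyte antigen CD45, stood at 9.23, 10.4 and 10.1 CPM (3.50 ± 0.23 TPM), CD74 at 19.3 ± 1.6 TPM, HLA-DRA at 7.35 ± 0.76 TPM and CSF1R at 2.23 ± 0.089 TPM. AIF1 (IBA1), TYROBP, SPI1, P2RY12 and CD3E, which define myeloid and T cells, had 0 counts. TYROBP and SPI1 lie beyond the first 6 lacking members in list order and were named after their values were seen.

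Of 11 endothelial genes, KDR (16.5 ± 1.7 TPM), TEK (0.881 ± 0.071 TPM) and PECAM1 (0.435 ± 0.019 TPM) were expressed, 6 were low, and CDH5, the endothelial cadherin, and CLDN5 were lacking. Of 13 epithelial genes, KRT18 (122 ± 6.4 TPM), KRT8 (7.03 ± 0.83 TPM) and CLDN4 (1.64 ± 0.095 TPM) were expressed, and CDH1, EPCAM, ESRP1 and GRHL2 were lacking. Of 20 neuronal genes, 7 were expressed, led by TUBB3 (74.7 ± 2.3 TPM), a tubulin also found in dividing tumour cells, ENO2 (46.9 ± 1.2), UCHL1 (32.8 ± 2.9), SNAP25 (26.5 ± 0.87) and SYT1 (12.3 ± 0.96 TPM). DCX, STMN2, GAD2, SLC17A6, NEFH and ELAVL4 were lacking. Of 11 melanocyte and neural crest genes, TFAP2A (33.7 ± 1.4 TPM), MITF (11.5 ± 1.1) and NGFR (1.25 ± 0.26) were expressed, and TYR, SOX10 and TFAP2B had 0 counts. The shares expressed were 27.3% of endothelial, 23.1% of epithelial, 35% of neuronal and 27.3% of melanocyte and neural crest genes. The share of all protein-coding genes expressed was 61.2%. In bulk RNA, a few cells at a high level and many at a low level cannot be told apart.

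Intermediate filaments, the structural fibres used to type cells, showed 12 of 20 members expressed (60%, near the 61.2% of all protein-coding genes). After VIM came KRT7, a simple epithelial keratin, at 665, 598 and 633 CPM (501 ± 25 TPM), then LMNA (237 ± 4.2 TPM), KRT81, a hair keratin with near copies in its cluster whose reads may be split, at 181 ± 5.6 TPM, and KRT18 at 122 ± 6.4 TPM. KRT18 exceeded its usual partner KRT8 17.4-fold by TPM (± 1.1), or 11.1-fold (± 0.70) taking the longest transcript as the length. The muscle and neuronal filaments DES, INA and NEFH were lacking. No neighbouring pair in this order overlapped between libraries.

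HOX genes, transcription factors that pattern the trunk and limbs, were expressed in 26 of 39 cases (66.7%, near the 61.2% of all protein-coding genes), 9 were low and 4 were lacking. HOXC10 was highest at 30.4, 32.2 and 28.9 CPM (42.5 ± 2.1 TPM), followed by HOXC13 (24.9 ± 0.46 TPM), HOXA9 (24.8 ± 1.8), HOXB3 (23.9 ± 0.65) and HOXB7 (23.5 ± 1.3 TPM), which overlapped as neighbours in that order. The expressed counts were 8 of 11 in cluster A, 8 of 10 in cluster B, 7 of 9 in cluster C and 3 of 9 in cluster D, whose summed level was 24.6 TPM against 68.7 to 116 TPM for the others. By position, 8 of 12 genes of paralogue groups 1 to 4, 7 of 11 of groups 5 to 8 and 11 of 16 of groups 9 to 13 were expressed. HOXB1, HOXC12, HOXD1 and HOXD12 were lacking. Neighbouring HOX genes share exons, so the split of reads between them is uncertain.

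Of 19 SOX genes, 6 were expressed (31.6%, against 61.2% of all protein-coding genes). These were SOX9 (65.5 ± 3.9 TPM), SOX4 (57.0 ± 4.0), SOX7 (23.4 ± 0.87), SOX12 (21.3 ± 0.75), SOX13 (11 ± 0.81) and SOX5 (0.678 ± 0.086 TPM). SOX7 shares 39.4% of its exon bases with PINX1 on the same strand (1.55 CPM). SOX1, SOX2, SOX10, SOX11, SOX14 and SOX17 were lacking. Of 9 PAX genes, PAX8 (4.03 ± 0.16 TPM), PAX3 (3.09 ± 0.20) and PAX6 were expressed (33.3%), and PAX1, PAX4, PAX5 and PAX7 had 0 counts.

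Cancer-testis genes, which are germline genes reactivated in some tumours, were split. Of 24, 6 were expressed (25%, against 61.2% of all protein-coding genes) and 13 were lacking. MAGEA3 stood at 19.5, 18 and 16.5 CPM (32.7 ± 2.3 TPM), MAGEA12 at 21.7 ± 1.2 TPM and MAGEA6 at 20.1 ± 1.7 TPM. These 3 are near-identical copies on the X chromosome, so the split between them is uncertain. MAGEC2 reached 7.86 ± 0.28 TPM, whereas MAGEA9, MAGEB1, MAGEB2, GAGE1 and CTAG1B had 0 counts.

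Receptor tyrosine kinases carry growth factor signals across the membrane, and 32 of all 58 were expressed (55.2%, against 61.2% of all protein-coding genes). Another 18 were low and 8 were lacking. AXL, the GAS6 receptor, was the most abundant at 723, 712 and 789 CPM (467 ± 31 TPM). MET followed at 737, 805 and 824 CPM (364 ± 24 TPM), and EPHA2, an ephrin receptor, at 271, 263 and 271 CPM (210 ± 4.5 TPM). These 3 did not overlap by TPM. EGFR, the receptor most often amplified in glioblastoma, stood at 302, 339 and 356 CPM (86.3 ± 8.0 TPM), with replicate 1 lowest. EPHB4 (69.8 ± 0.29 TPM), EPHB2 (64.1 ± 1.8), FGFR1 (50.0 ± 1.4) and DDR2, a collagen receptor (46.7 ± 4.1 TPM), came next.

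By family, 9 of 14 ephrin receptors, 2 of 4 EGFR family members (EGFR and ERBB2), 2 of 4 FGF receptors, 2 of 3 TAM receptors and 4 of the 5 receptors for PDGF, KIT ligand, CSF1 and FLT3 ligand were expressed. None of the 3 neurotrophin receptors was: NTRK2 had 0 counts and NTRK3 was low. ERBB4, FLT3, FLT4, EPHA6 and EPHA7 were lacking. ERBB2, KIT and NTRK3 were named after their values were seen. KIT, the stem cell factor receptor, stood at 50.3, 53.0 and 51.3 CPM (30.1 ± 0.90 TPM).

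**Figure D3:**
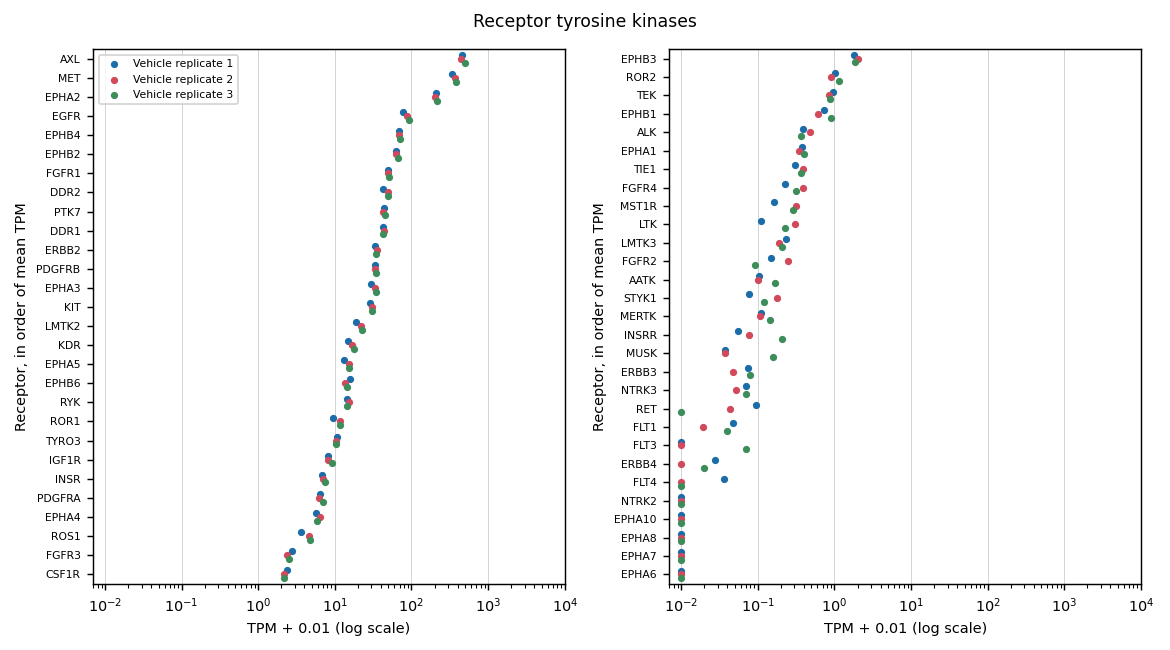
TPM plus 0.01 on a log axis for all but 1 of the 58 receptor tyrosine kinases in order of mean TPM, with a point for each vehicle library. AXL, MET and EPHA2 lie above 200 TPM in every library, and NTRK2 and 4 ephrin receptors lie at 0.01, which is 0 counts.

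Of 39 growth factor ligands, 26 were expressed (66.7%, near the 61.2% of all protein-coding genes), 10 were low and 3 (AREG, NRG3 and IGF1) were lacking. CSF1, the macrophage growth factor, led at 213, 212 and 218 CPM (128 ± 3.1 TPM), with VEGFC (124 ± 2.0 TPM), FGF2 (106 ± 7.7), VEGFB (105 ± 2.0), GAS6 (104 ± 5.8), VEGFA (59.6 ± 0.38) and KITLG (47.6 ± 3.6 TPM) below it. FGF2, VEGFB and GAS6 overlapped between libraries. Over 26 textbook pairs of receptor and ligand, chosen with the levels known, both genes were expressed in 17, the receptor without the ligand in 6, and the ligand without the receptor in 3. AXL exceeded GAS6 4.50-fold by TPM (± 0.40) and MET exceeded HGF 79.9-fold (± 3.3), or 2.15-fold (± 0.19) and 51.7-fold (± 2.1) taking the longest transcript as the length, whereas KITLG (47.6 TPM) exceeded KIT (30.1 TPM). The pairs without a receptor included the neurotrophins BDNF (22.4 ± 0.67 TPM) and NTF3 (3.70 ± 0.28 TPM) with NTRK2 and NTRK3. EGFR was expressed beside HBEGF (28.3 ± 1.8 TPM) and TGFA (10.7 ± 0.47 TPM), and beside low EGF and lacking AREG. Ligands named outside the 8 highest were named after their values were seen.

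Among ligands of the TGF-beta family, which regulate matrix and growth, TGFB1 stood at 511, 523 and 501 CPM (513 ± 8.9 TPM). INHBA (26.9 ± 0.47), GDF11 (22.8 ± 0.30) and TGFB2 (16.1 ± 0.90 TPM) were lower. BMP1 (103 ± 3.6 TPM), on the same list, is a procollagen protease and not a ligand of this family. Of the 13 list members, BMP1 included, 8 were expressed (61.5%, against 61.2% of all protein-coding genes). BMP7 and LEFTY2 had 0 counts. Of 14 receptors 10 were expressed (71.4%), led by the co-receptor ENG (269 ± 2.3 TPM), TGFBR2 (53.2 ± 0.86) and TGFBR1 (36.5 ± 1.2 TPM), and AMHR2 was lacking. Of 9 Notch receptors and ligands, 6 were expressed (66.7%, near the 61.2% of all protein-coding genes). NOTCH2 stood at 397, 455 and 473 CPM (85.4 ± 8.5 TPM), 3.96-fold (± 0.13) above NOTCH1 by TPM, and DLL3 had 0 counts. Of 15 Wnt receptors 13 were expressed (86.7%), led by FZD2 (59.1 ± 1.1 TPM) and the R-spondin receptor LGR4 (33.9 ± 1.4 TPM), and FZD10 had 0 counts.

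Receptors for cytokines were the most complete among the receptor lists after those for Wnt. Of 28, 24 were expressed (85.7%, against 61.2% of all protein-coding genes). TNFRSF12A, the TWEAK receptor, stood at 241, 210 and 202 CPM (382 ± 32 TPM), TNFRSF1A at 205 ± 1.1 TPM, IL6ST, the shared subunit of IL6 family receptors, at 174 ± 18 TPM and OSMR, the oncostatin M receptor, at 105 ± 6.2 TPM. IL13RA2, a decoy receptor studied as a glioma antigen, stood at 61.3, 63.7 and 58 CPM (122 ± 5.0 TPM) and overlapped IL13RA1 (114 ± 4.5 TPM) by TPM. CSF2RA was lacking. Of 10 Toll-like receptors, which sense microbial products, 4 were expressed (40%), TLR4 highest at 4.88 ± 0.36 TPM, and TLR2 and TLR7 had 0 counts.

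Antigen presentation genes were expressed in 15 of 19 cases (78.9%, against 61.2% of all protein-coding genes). HLA-C (442 ± 28 TPM), HLA-B (304 ± 21) and B2M (294 ± 19 TPM) were among the highest, and HLA genes are variable between people, so their counts against a reference are uncertain. NT5E, the ectonucleotidase CD73, reached 118 ± 5.1 TPM and CD276, a checkpoint ligand, 92.9 ± 2.4 TPM. VTCN1 had 0 counts. CD274, the PD-L1 ligand, named after its value was seen, stood at 3.90 TPM.

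Receptors for neurotransmitters were sparse. Of 36 aminergic receptors, 9 were expressed, 8 were low and 19 were lacking, a share of 25% against 61.2% of protein-coding genes. HRH1, a histamine receptor, stood at 35.9, 37.9 and 38.5 CPM (21.9 ± 0.99 TPM) and HTR7, a serotonin receptor, at 15.8, 16.2 and 17 CPM (16.9 ± 0.78 TPM). ADRA1D (8.13 ± 0.55 TPM), HTR1D (4.02 ± 0.48), HTR2A (4.00 ± 0.38) and ADRA2C (3.55 ± 0.47 TPM) were lower, and HTR1D, HTR2A and ADRA2C overlapped. By transmitter, 4 of 9 adrenergic, 1 of 5 dopamine, 3 of 12 serotonin, 0 of 5 muscarinic and 1 of 4 histamine receptors were expressed. ADRA1A, ADRB1, ADRB3, DRD3 and DRD5 had 0 counts.

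Of 37 glutamate and GABA receptor subunits, 5 were expressed (13.5%, against 61.2% of all protein-coding genes), 13 were low and 19 were lacking. GRIK2, a kainate receptor subunit, was highest at 48.7, 51.8 and 54.7 CPM (22.1 ± 1.5 TPM), above GABRA3 (11.3 ± 0.42 TPM), GABBR1 (9.32 ± 0.32), GRIA3 (7.70 ± 0.30) and GRIA1 (1.11 ± 0.12 TPM), with no overlap between neighbours. None of the 5 NMDA subunits and none of the 8 metabotropic glutamate receptors was expressed. GABRA3 was the sole GABA-A subunit of 13 above the threshold, and GRIA2 and GRM3 had 0 counts.

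Among 45 receptors for lipids, purines and peptides, 23 were expressed (51.1%, against 61.2% of all protein-coding genes). F2R, the thrombin receptor, stood at 73.9, 78.4 and 80.3 CPM (61.9 ± 3.2 TPM), followed by LPAR1 for lysophosphatidic acid (43.3 ± 2.8 TPM), ADORA2B for adenosine (35.9 ± 1.2), BDKRB1 for bradykinin (35.5 ± 2.1), F2RL1 (30.5 ± 1.8) and PTGER2 for prostaglandin E2 (27.2 ± 1.5 TPM). P2RY1, P2RY13 and P2RY14, purine receptors, had at most 1 count in all.

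Of 48 nuclear receptors, which are ligand-gated transcription factors, 26 were expressed (54.2%, against 61.2% of all protein-coding genes). NR1D1, the clock repressor REV-ERB alpha, led at 89.2, 88.1 and 95.8 CPM (107 ± 5.8 TPM), with NR2F1 (97.2 ± 1.8 TPM), PPARD (85.4 ± 1.3), the glucocorticoid receptor NR3C1 (78.3 ± 5.7), RARA (68.2 ± 0.62) and NR2F2 (66.9 ± 4.2 TPM) below. NR1H4, NR1I2, HNF4A, RXRG and NR2E1, the last a factor of neural stem cells, were lacking.

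Matrix genes made up 14 of the 100 nuclear protein-coding genes of highest TPM. Of all 44 collagen chains, 26 were expressed (59.1%, near the 61.2% of all protein-coding genes), 11 were low and 7 were lacking. The chains took 1.28% to 1.33% of all counts. COL1A1 stood at 3771, 3711 and 3594 CPM (1220 ± 17 TPM), COL6A1 at 1584, 1538 and 1528 CPM (942 ± 11 TPM), COL5A1 at 2334, 2407 and 2260 CPM (677 ± 18 TPM) and COL6A2 at 1056, 979 and 943 CPM (598 ± 29 TPM). COL1A1 exceeded COL1A2 2.38-fold by TPM (± 0.0081), and type I collagen is known to hold more of the first chain than of the second. It exceeded COL3A1, the fibroblast collagen that usually accompanies it, 74.4-fold (± 2.9).

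COL6A1 exceeded COL6A3, its partner in type VI fibrils, 30.5-fold (± 0.65), and COL4A2 exceeded COL4A1, its partner in basement membranes, 1.68-fold (± 0.065). Fibrillar chains summed to 2571 TPM over 11 genes, type VI chains to 1571 TPM over 5 and type IV chains to 251 TPM over 6. COL6A5, COL9A1, COL9A3, COL20A1, COL22A1 and COL23A1 were lacking. COL3A1 and COL6A3 were named after their values were seen.

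**Figure D4:**
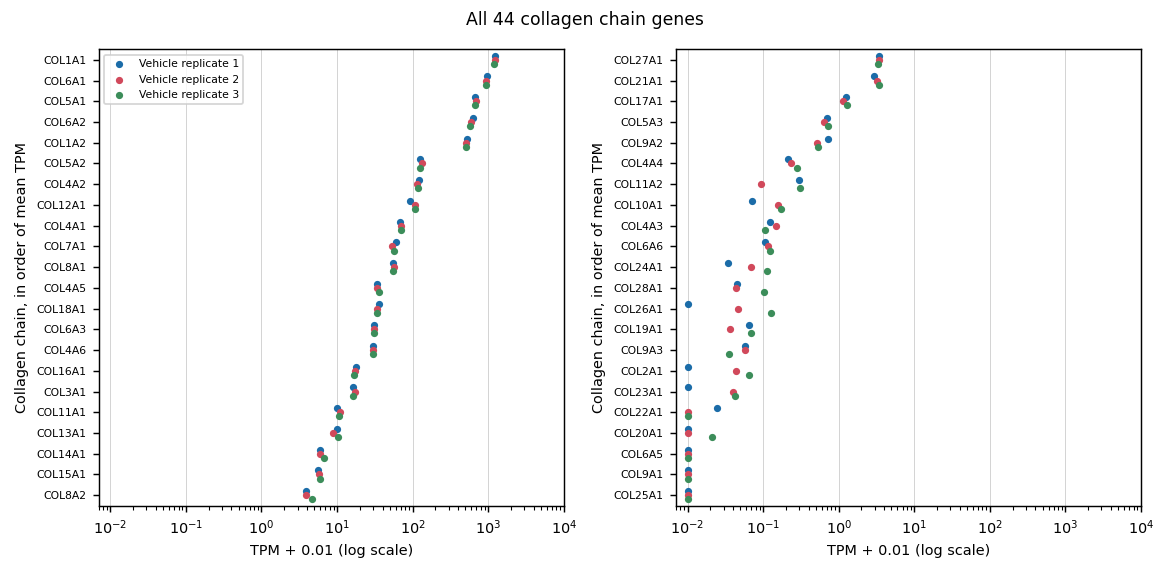
TPM plus 0.01 on a log axis for all 44 collagen chain genes in order of mean TPM, with a point for each vehicle library. COL1A1, COL6A1, COL5A1, COL6A2 and COL1A2 form a group above 500 TPM, and the lowest chains lie at 0.01, which is 0 counts.

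Of 18 collagen-modifying enzymes, 17 were expressed (94.4%, against 61.2% of all protein-coding genes). P4HB, a subunit of prolyl hydroxylase, stood at 877 ± 23 TPM, the crosslinking enzyme LOXL2 at 1112, 1145 and 1073 CPM (631 ± 17 TPM), PLOD1 at 365 ± 4.7 TPM, transglutaminase TGM2 at 311 ± 8.5 TPM and the collagen chaperone SERPINH1 at 211 ± 7.2 TPM. Of 12 laminin chains, 9 were expressed (75%) and none was lacking. LAMC1 (285 ± 17 TPM) and LAMB1 (255 ± 9.1 TPM) overlapped at the top, with the alpha chains LAMA4 (81.6 ± 2.5) and LAMA5 (41.8 ± 1.2 TPM) below.

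Of 37 matrix glycoproteins 26 were expressed (70.3%, against 61.2% of all protein-coding genes). Behind TGFBI came SPARC, a collagen-binding protein, at 2364, 2403 and 2198 CPM (1560 ± 61 TPM), FN1 at 4165, 4666 and 4686 CPM (845 ± 62 TPM), THBS1 (681 ± 54 TPM), CCN1 (651 ± 9.0), TNC, a glioma-associated tenascin (260 ± 9.2), and CCN2 (226 ± 10 TPM). The brain glycoprotein TNR had 1 count, SPARCL1, an astrocyte protein, had 5, and TNN and FBN3 had 0.

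Of 31 proteoglycan and hyaluronan genes 20 were expressed (64.5%, near the 61.2% of all protein-coding genes). SDC4 (240 ± 9.0 TPM), VCAN (138 ± 15), GPC1 (126 ± 3.4) and GPC6 (105 ± 9.7 TPM) came below CD44. The brain lecticans BCAN and NCAN had 2 and 1 counts, and PTPRZ1, a phosphatase receptor of glial progenitors, had 0, as did GPC3.

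Of all 23 matrix metalloproteinases, 11 were expressed (47.8%, against 61.2% of all protein-coding genes) and 5 were lacking. The membrane protease MMP14 stood at 890, 868 and 878 CPM (639 ± 8.1 TPM) and exceeded the gelatinase MMP2 (282 ± 5.1 TPM) 2.27-fold (± 0.067), and MMP1 (53.6 ± 1.4), MMP16 (25.9 ± 2.5) and MMP3 (16.2 ± 0.56 TPM) followed. MMP8, MMP20, MMP21, MMP26 and MMP27 were lacking. All 9 protease inhibitors and plasminogen genes were expressed, with TIMP1 4.45-fold (± 0.38) above TIMP2 by TPM.

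Of all 26 integrin subunits, 10 of 18 alpha and 6 of 8 beta chains were expressed (61.5% together, against 61.2% of all protein-coding genes). ITGB1, the common beta chain, stood at 1628, 1732 and 1670 CPM (906 ± 32 TPM), with ITGA5 (533 ± 11 TPM), a fibronectin receptor chain, and ITGA3 (518 ± 3.0 TPM), a laminin receptor chain, overlapping behind it, and ITGA2 (92.7 ± 8.2) and ITGAV (62.6 ± 5.9 TPM) after that. ITGA8, ITGAD and ITGAL had 0 counts. Of 19 classical cadherins, 10 were expressed (52.6%, against 61.2% of all protein-coding genes). CDH2, N-cadherin, stood at 334, 356 and 343 CPM (226 ± 8.1 TPM), CDH11 at 77.3 ± 2.2 TPM and CDH13 at 45.7 ± 0.17 TPM. CDH1, E-cadherin, had 2 counts in all.

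Among metabolic genes, glycolytic enzymes showed a clear choice of isoforms. Of 27, 18 were expressed (66.7%, near the 61.2% of all protein-coding genes) and 6 were lacking. The list took 1.64% to 1.76% of counts. GAPDH stood at 4237, 3984 and 3935 CPM (4412 ± 138 TPM), ENO1 at 1641 ± 91 TPM, ALDOA at 1287 ± 54, PKM at 1254 ± 13 and LDHA at 917 ± 29 TPM. By TPM, LDHA exceeded LDHB 3.01-fold (± 0.039), ENO1 exceeded ENO2 35.0-fold (± 1.9), and ALDOA exceeded ALDOC 161-fold (± 3.4). PFKP exceeded PFKL 2.56-fold (± 0.076) and HK1 exceeded HK2 5.86-fold (± 0.12), or 3.01-fold and 8.78-fold taking the longest transcript as the length. These 4 genes were named after their values were seen. The liver, red cell and testis forms PGK2, PKLR and GAPDHS had 0 counts, and HK3 and LDHC had 2 and 1. GAPDHS had 0 counts although 60.8% of its exon bases lie opposite TMEM147-AS1 (9.57 CPM).

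L-15 medium is known for supplying galactose in place of glucose. All 7 galactose breakdown genes were expressed, from 6.57 TPM (GALM, the mutarotase) to 64.6 ± 2.5 TPM (PGM1, phosphoglucomutase), with GALK1 (17.3 ± 1.1) and GALT (8.27 ± 0.80 TPM) between them. GALK1 exceeded GALK2 2.07-fold (± 0.085). The sugar carrier SLC2A1 stood at 195, 189 and 181 CPM (129 ± 3.6 TPM), 6.97-fold (± 0.36) above SLC2A3, whose reads may be shared with its close copy SLC2A14. The lactate exporter SLC16A3 (110 ± 7.5 TPM) exceeded SLC16A1 1.34-fold (± 0.12), or 2.05-fold (± 0.18) taking the longest transcript as the length. SLC2A2 and SLC2A7 had 1 and 0 counts. Of 7 gluconeogenic genes, G6PC3 (103 ± 4.0 TPM), PC (16.9 ± 0.87) and PCK2 (9.81 ± 0.60) were expressed, and PCK1, FBP2 and G6PC1, the liver and muscle forms, were lacking. The shares expressed were 100% of galactose breakdown and 42.9% of gluconeogenic genes, against 61.2% of all protein-coding genes.

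All 27 genes of the TCA cycle and pyruvate entry were expressed, from 7.62 to 247 TPM, with MDH2 (247 ± 7.9 TPM), CS (133 ± 0.73), IDH2 (123 ± 5.8) and FH (120 ± 2.3 TPM) highest. All 13 mitochondrially encoded subunits were expressed, led by MT-CO2 (53725 TPM) and MT-CO1 (44811 TPM), and the 13 took 9.02% to 9.21% of counts. Of 21 tissue-paired mitochondrial genes, 11 were expressed, namely the widely expressed forms COX8A (776 ± 74 TPM), SLC25A5 (639 ± 26), SLC25A6 (536 ± 28), COX6B1 (345 ± 29), COX6A1 (175 ± 23) and others. The paired forms COX4I2, COX6A2, COX8C, SLC25A31 and UCP1 were lacking. The share of this paired list expressed was 52.4%, against 61.2% of all protein-coding genes. COX6A1 stood at 79.0, 77.6 and 60.7 CPM, with replicate 3 apart from the other two.

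Of 8 pentose phosphate genes, 7 were expressed (87.5%, against 61.2% of all protein-coding genes). PGD, the phosphogluconate dehydrogenase, stood at 223 ± 7.0 TPM, and TKTL1 was lacking. Amino acid carriers were abundant: SLC1A5 (299 ± 11 TPM), SLC38A2 (180 ± 14), SLC7A5 (142 ± 3.5) and its partner SLC3A2 (95.6 ± 5.3 TPM). ODC1, the first enzyme of polyamine synthesis, reached 306 ± 7.5 TPM, and SLC7A11, the cystine carrier, 42.1 ± 4.7 TPM. GLS2, the liver glutaminase, had 0 counts although 77.1% of its exon bases lie opposite SPRYD4 (11.4 CPM), and NOS1, NOS2 and NOS3, nitric oxide synthases, had 0, 1 and 1.

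Of 23 genes of serine, folate and methionine metabolism 20 were expressed, with MAT2A, methionine adenosyltransferase, at 231 ± 0.95 TPM, PSAT1 at 102 ± 2.5 and TYMS at 100 ± 2.3 TPM, and MAT1A, the liver form, at 0 counts. PSAT1 and TYMS overlapped between libraries, and 39.1% of TYMS exon bases lie opposite ENOSF1 (2.31 CPM). Of 21 fatty acid genes 20 were expressed, led by ACLY (289 ± 5.7 TPM), ELOVL5 (246 ± 7.1), ELOVL1 (167 ± 2.8) and SCD (155 ± 11 TPM), and ELOVL2 was lacking. Of 25 cholesterol genes 23 were expressed, from INSIG1 (118 ± 6.2 TPM) and CYP51A1 (106 ± 1.5 TPM) down to 3.13 TPM, and none was lacking. Of 22 xenobiotic genes 15 were expressed (68.2%, against 61.2% of all protein-coding genes). GSTP1 (231 ± 19 TPM), NQO1 (154 ± 2.7), HMOX1 (74.7 ± 1.7) and ABCC1 (73.4 ± 3.4 TPM) led, and CYP1A2 had 0 counts.

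Genes of division were expressed almost without exception. All 28 replication genes and all 26 mitosis genes were expressed, with medians of 29 and 98.3 TPM. Beside these counts, 61.2% of all protein-coding genes were expressed. PCNA, the replication clamp, stood at 117, 111 and 107 CPM (246 ± 8.0 TPM), MCM7 at 138 ± 1.3 TPM and RRM1 at 123 ± 3.5 TPM. CDC20, an activator of the anaphase complex, stood at 238, 225 and 221 CPM (363 ± 11 TPM), ANLN at 259 ± 19, TOP2A at 237 ± 12 and TPX2 at 235 ± 4.7 TPM, the last 3 overlapping as neighbours. FOXM1, a transcription factor of mitotic genes, stood at 136 ± 1.9 TPM. MKI67, the proliferation marker Ki-67, named after its value was seen, stood at 360 CPM (91.4 TPM).

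Of 14 cyclins and cyclin-dependent kinases, 12 were expressed (85.7%, against 61.2% of all protein-coding genes). CCNB1 reached 222 ± 3.0 TPM, CCND1 134 ± 13, CDK4 123 ± 4.1 and CCNA2 86.1 ± 1.7 TPM, and CCND1 overlapped CDK4. CDK4 exceeded CDK6 4.94-fold (± 0.89), although 43.2% of CDK4 exon bases lie opposite TSPAN31 (17.9 CPM), and CCND1 exceeded CCND3 2.75-fold (± 0.32), or 1.27-fold (± 0.15) taking the longest transcript as the length. CCND2 had 2 counts in all. CDK6 was named after its value was seen.

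All 7 inhibitors of these kinases were expressed, against 61.2% of all protein-coding genes. CDKN2A (chromosome 9, 21967753 to 21995301, minus strand, GRCh38), which encodes the inhibitor INK4A and the protein ARF from the 2 starts shown above, stood at 237, 229 and 219 CPM (171 ± 5.0 TPM), above 95.1% of expressed nuclear protein-coding genes. Gene counts do not tell its 2 products apart. CDKN2C stood at 111, 114 and 105 CPM (108 ± 3.7 TPM), CDKN1B at 24.1 ± 1.3, CDKN2B at 22.8 ± 0.72, CDKN1A at 21.6 ± 0.97, CDKN2D at 16 ± 1.2 and CDKN1C at 1.5 ± 0.14 TPM. CDKN2A exceeded its neighbour CDKN2B 7.51-fold (± 0.35) by TPM over summed exons, and 24.4-fold (± 1.1) taking the longest transcript as the length, which puts CDKN2A itself at 456 TPM.

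The neighbourhood that is often deleted with CDKN2A in glioma was transcribed. Of 8 genes, 7 were expressed: besides CDKN2A and CDKN2B, these were KLHL9 (29.8 ± 1.8 TPM), MTAP, the methylthioadenosine enzyme (96.8, 99.2 and 104 CPM, 22.2 ± 1.1 TPM), IFNE (7.23 ± 0.67), DMRTA1 (3.76 ± 0.33) and the antisense RNA CDKN2B-AS1 (0.654 ± 0.091 TPM). ELAVL2 was low at 0.184 CPM. The share expressed was 87.5%, against 61.2% of all protein-coding genes.

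RB1 (chromosome 13, 48303726 to 48599436, GRCh38), the target that INK4A protects, had 124, 142 and 118 counts, or 4.45, 4.99 and 4.46 CPM (2.33 ± 0.15 TPM), above 8.06% of expressed nuclear protein-coding genes. It was the lowest of the 13 pocket protein and E2F genes, all of which were expressed, against 61.2% of all protein-coding genes. Its relative RBL2 exceeded it 13.3-fold (± 0.89) and CDKN2A exceeded it 73.7-fold (± 5.6) by TPM, or 185-fold (± 13.9) taking the longest transcript as the length. TFDP1, the E2F partner, stood at 141 ± 5.9 TPM, E2F4 at 58.4 ± 2.6, E2F1 at 51.6 ± 1.9 and E2F7 at 50.4 ± 4.5 TPM. No contrast with another line was available, so these levels have no reference for what is usual.

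Of 29 glioma driver and tumour suppressor genes, 26 were expressed (89.7%, against 61.2% of all protein-coding genes). The histone genes H3-3A and H3-3B stood at 179 ± 7.8 and 139 ± 5.5 TPM, DAXX at 75.9 ± 1.3, MYC at 67.6, FUBP1 at 64.1, CIC at 50.8, IDH1 at 31.3 and ATRX at 24.3 TPM. PIK3CA (22.9 TPM), NF1 (21.8 ± 3.0), PIK3R1 (18.2), MDM2 (10.3), MDM4 (7.31) and BRAF (7.26 TPM) were lower. NF1 stood at 157, 187 and 203 CPM, with replicate 1 lowest. MGMT, the repair enzyme that removes alkyl groups from guanine, had 18, 14 and 16 counts (0.646, 0.492 and 0.605 CPM), and its CpG-dense window is shown above. TERT, the telomerase catalytic subunit, had 50, 39 and 32 counts (1.80, 1.37 and 1.21 CPM), TERC was low at 0.040 CPM in libraries made from mRNA, and MYCN had 1 count. Sequence variants of these genes cannot be read from gene counts.

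The most abundant genes included a run of neighbours on chromosome 4. This run was noticed in the levels and chosen after its values were seen. From SRD5A3 to IGFBP7, over 1.76 Mb, 18 protein-coding genes were expressed, and 11 of them reached 100 TPM or more, a level held by 10.0% of all expressed nuclear protein-coding genes (1206 of 12038). PAICS, an enzyme of purine synthesis (chromosome 4, 56435741 to 56464579, GRCh38), stood at 1438, 1420 and 1454 TPM and ranked 29 among nuclear protein-coding genes. SRP72, a subunit of the signal recognition particle, stood at 1206, 1231 and 1290 TPM and ranked 36, and POLR2B, the second subunit of RNA polymerase II, stood at 868, 878 and 902 TPM and ranked 59. IGFBP7, a secreted binding protein common in mesenchymal cells, stood at 2464, 2415 and 2157 TPM and ranked 13.

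CLOCK, the circadian transcription factor, stood at 385, 445 and 481 TPM, TMEM165, a Golgi protein, at 335, 328 and 308 TPM, EXOC1, an exocyst subunit, at 308, 328 and 325 TPM, and PPAT, the enzyme next to PAICS, at 220, 226 and 232 TPM. NOA1 (215 TPM), AASDH (126 TPM), SRD5A3 (107 TPM) and CEP135 (85.0 TPM) were lower. In the same stretch CRACD stood at 1.09 TPM and SPINK2 had 0 counts. Upstream, CHIC2 stood at 233 TPM, and the kinase receptors PDGFRA, KIT and KDR, which lie between CHIC2 and SRD5A3, stood at 6.55, 30.1 and 16.5 TPM. Of the 10 protein-coding genes before CHIC2, 5 were expressed and the highest reached 84.1 TPM, and of the 10 after IGFBP7, 4 were expressed and the highest reached 19.6 TPM.

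Partners of these products encoded elsewhere are set beside them. The run was picked for its high levels and the partners were chosen after the values were seen. That each gene exceeded its partners therefore follows in part from this choice. PAICS exceeded ATIC, the highest of 6 other purine synthesis genes (54.6 ± 0.33 TPM), 26.3-fold, and PPAT exceeded it 4.14-fold. EXOC1 exceeded EXOC7, the highest of 8 other exocyst genes (40.3 ± 0.99 TPM), 7.94-fold. POLR2B exceeded POLR2L, the highest of 11 other polymerase subunits (271 ± 24 TPM), 3.25-fold and their median 12.2-fold. SRP72 exceeded SRP9, the highest of 5 other particle subunits (390 ± 9.2 TPM), 3.19-fold. CLOCK exceeded PER3, the highest of 7 clock genes set beside it (24.6 ± 1.6 TPM), 17.8-fold. BMAL1, its binding partner, was among the 7 and stood at 2.95 TPM. The clock repressor NR1D1 was not among the 7, and its level, given above, was higher than that of PER3. These folds are ratios of mean TPM. Taking the longest transcript as the length, they fell to 17.7-fold for PAICS, 3.23-fold for PPAT, 5.63-fold for EXOC1 and 15.8-fold for CLOCK. They rose to 3.65-fold for POLR2B over POLR2L and 4.58-fold for SRP72. Over all 11888 windows of 7 adjacent expressed genes, the median level was 19.5 TPM at the middle window and 88.4 TPM at the 99th percentile. The window from EXOC1 to SRP72 had 226 TPM and ranked 5, behind S100 genes on chromosome 1 (260 TPM) and 3 overlapping windows around FLNA on chromosome X (260 TPM). DNA copy number was not measured in these files.

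**Figure D5:**
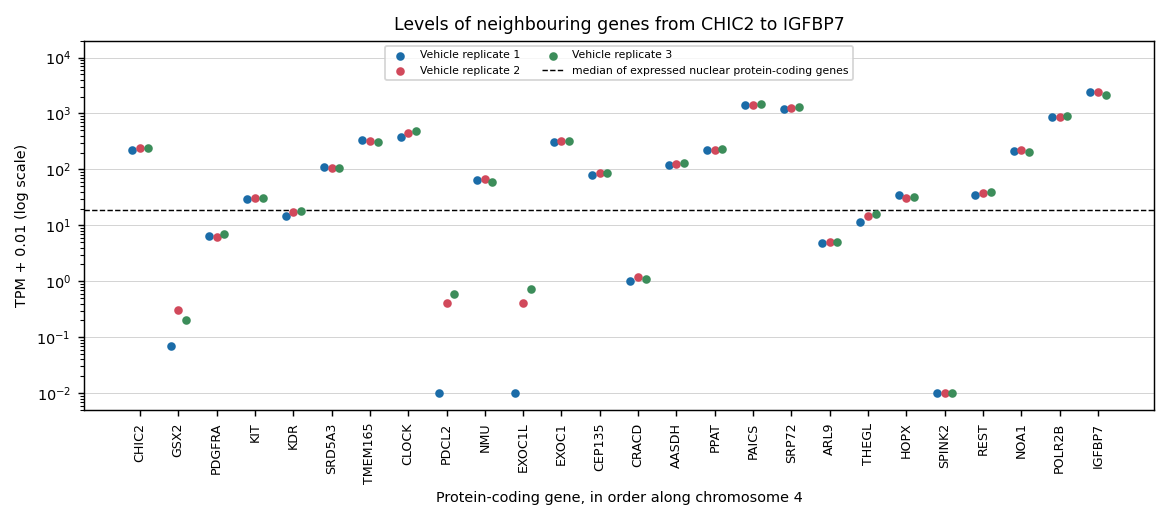
TPM plus 0.01 on a log axis for the 26 protein-coding genes from CHIC2 to IGFBP7 in chromosomal order, with a point for each vehicle library and a dashed line at the median of expressed nuclear protein-coding genes (19.2 TPM). PAICS, SRP72, POLR2B and IGFBP7 lie above 800 TPM in every library, and PDGFRA and KDR lie below the line.

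The 20 genes of highest TPM were the 13 mitochondrial subunits above with MT-RNR2 (26283 TPM), the cytoskeletal actin ACTB (8021 TPM), the ferritin light chain FTL (4684 TPM), the actin-binding thymosin TMSB10 (4129 TPM), GAPDH, the pseudogene MTATP6P1 (5237 TPM) and an entry without a symbol. The spread between libraries was small: the biological coefficient of variation from edgeR's common dispersion was 4.84%. The median coefficient of variation was 12.5% for the 1491 genes of 1 to 3 CPM and 3.14% for the 76 genes above 1000 CPM, against 13.8% and 0.454% from counting alone. The 10 expressed genes of at least 10 CPM with the largest spread were mostly readthrough, antisense, duplicated or pseudogene entries, such as MAGED4 (15.8, 25.7 and 15.9 CPM), ATP6V1G2-DDX39B (38.1, 40.1 and 62.1 CPM), PEDS1-UBE2V1 (14.3, 22.2 and 14.5 CPM) and SMG1P1 (12.5, 21.3 and 21.2 CPM). RSEM divides reads between overlapping or duplicated entries, and the part of this division in their spread was not tested. ZBED6 (13.9, 22.4 and 23.5 CPM) and NBEAL1 (11.9, 17.5 and 19.9 CPM) were lowest in replicate 1. Other genes, picked after their values were seen, also shifted in library order. MKI67 (328, 369 and 384 CPM) and CDK6 (81.5, 99.4 and 105 CPM) rose. S100A6 (919, 731 and 634 CPM) and LGALS1 (764, 680 and 604 CPM) fell. Ribosomal protein genes took 3.32%, 3.09% and 2.87% of counts in the same order. Whether such shifts follow transcript length was not tested.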

How the data were processed

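Vehicle cultures gave total RNA of an integrity number above 7, and 1 µg went into a directional mRNA library kit read as 100 bp pairs, per the labels' protocols. The authors deposited expected counts per gene. Tools named in the submitters' processing notes are RSEM 1.3.3, the aligner STAR 2.7.3a, the trimmer Trim Galore 0.6.5 and FastQC 0.11.9, on build GRCh38. No source used here names the gene annotation or says whether counting used strand, so overlapping genes on opposite strands may share reads. RSEM splits reads that fit several genes, which makes levels of near copies uncertain. Samples with too little RNA were left out before deposit, per the series description.

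Of the values in the 3 vehicle columns, 11.0% were not whole numbers. CPM used the plain column totals and TPM the summed exon lengths of GENCODE release 29, which held 57055 of 60675 identifiers, and symbols were found for 56558. The dispersion and TMM factors came from edgeR 4.0.16 (R 4.3.3) on rounded counts, the rest from Python 3.11.15 with pandas 2.3.3 and numpy 2.4.6. No groups were compared and no test between conditions was made. The dispersion estimate and the class calls were also run on simulated counts. These had a dispersion set above that of the libraries and levels away from the class thresholds. That run therefore does not bear on genes near a threshold. The number of columns left unmapped was 0.

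The members and lists were chosen with earlier results of these data known. Genes were named by rule: per list the 8 expressed members of highest TPM and up to 6 lacking members in list order, and any member of the astrocyte, progenitor, oligodendrocyte, kinase inhibitor, driver and CDKN2A neighbourhood lists. Outside the lists, the rule took the 20 genes of highest TPM and the 10 expressed genes of at least 10 CPM with the largest spread. Any other gene, such as a partner in a ratio, a ligand of a receptor or a low member, was chosen after its values were seen. Alternatives were TMM scaling over all 60 libraries, totals without mitochondrial genes, other thresholds, another length, rounding, and each library left out. Some list members enter the counts but are not reported here by name.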

Additional observations from a re-analysis of the deposited data

How the results depend on the processing

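Of 133 alternatives to the counts of expressed or lacking genes, overall and per theme, 1 moved by more than 1.5 times: with 2 CPM for expressed and 0.2 CPM for lacking, 46 matrix members were lacking instead of 29. Of 540 alternatives to the expressed counts of single lists, 5 moved, in the endothelial list (1 to 5 expressed, against 3) and the skeletal muscle list (1 against 0). Of 480 alternatives to their lacking counts, 32 moved, in 15 lists, mostly under other thresholds: 2 CPM and 0.2 CPM gave 15 lacking receptor tyrosine kinases against 8, and 8 lacking astrocyte genes against 5. Leaving out a library moved 6 of these: endothelium to 4 from 2 and laminins to 1 from 0 without replicate 1, Notch genes to 2 from 1 without replicate 2, TGF-beta receptors to 2 from 1 without replicate 2 or 3, and glioma drivers to 2 from 1 without replicate 3. Leaving out each library in turn gave 12099 to 12117 expressed and 5018 to 5063 lacking protein-coding genes, 744 to 747 expressed and 227 to 230 lacking members, and a biological coefficient of variation of 3.41% to 6.13%, the last without replicate 2. Leaving mitochondrial genes out of the totals raised every one of 48 CPM levels 1.12-fold, and TMM scaling 1.02-fold. TPM was not recomputed in these ways, although the 13 mitochondrially encoded subunits summed to 318943 TPM. Nuclear TPM would therefore rise by more than CPM without them. Leaving out a library changed the CPM levels by 0.369 to 1.5 times. Both ends were set by S100B, at 4 counts in all, without replicates 1 and 3. OLIG2, also at 4 counts, was at 1.5 times without replicate 1. Taking the longest transcript as the length changed TPM by 0.788 to 2.66 times, the last for CDKN2A. Levels near the limit of 0.0362 CPM rest on single reads, so that class and order there are not resolved at this depth. No paired analysis was possible because no groups were compared.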
